A study of Mus musculus with 5 samples.

Results

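The heat-shock chaperones are proteins that help other proteins fold, keep them soluble and carry them between compartments. The 10 genes described here are Hspa1a, Hspa1b, Hspa8, Hspa5, Dnajb1, Dnaja1, Hsph1, Hsp90aa1, Hsp90ab1 and Hspe1. They were taken by symbol: every non-control probe whose RefSeq accession belongs to one of these symbols was read on every array. The arrays held 15 such probes for 9 of the 10 genes, out of 26425 named probes for 20022 genes. No probe matched Hspa1b, which was not analysed here. Expression was measured in natural killer T (NKT) cells, T cells that recognise lipids held by the CD1d molecule, from the thymus of C57BL/6 mice. Wild-type mice (genotype wt, 3 arrays) were compared with mice lacking the cytokine interleukin-15 (genotype IL15-/-, here IL15ko, 2 arrays). Each sample came from 10 pooled thymi, from which T cells were enriched with magnetic beads and cells positive for CD3e and the CD1d tetramer were sorted, and total RNA was hybridised to single-colour Agilent arrays. No agent was given to either group according to the labels, and the age of the mice is not given in the sources used here. The labels do not say that replicates came from separate pools or sorts, so p-values here reflect how far these samples varied, and that variation may be technical.

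These proteins work as a relay. J-domain proteins (the HSP40 family, such as Dnajb1 and Dnaja1) deliver unfolded clients to an HSP70 protein (Hspa8, Hspa1a and Hspa1b in the cytosol, Hspa5 in the endoplasmic reticulum) and stimulate its ATP hydrolysis, and Hsph1 exchanges its nucleotide so that the client is released. HSP90 proteins (Hsp90aa1 and Hsp90ab1) take over clients such as kinases and steroid receptors for the last steps of folding, while Hspe1 closes the mitochondrial HSP60 chamber. In most cells heat-shock factor 1 (Hsf1) induces Hspa1a, Hspa1b, Dnajb1 and Hsph1 on protein-damaging stress by binding inverted repeats of a short element in their promoters, whereas Hspa8 and Hsp90ab1 are made at a high level without stress and Hspa5 is a target of the unfolded protein response.

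The promoters show how the members differ in these elements, and the 250 bases before the start site of 5 members are printed 5′ to 3′ on the coding strand, from RefSeq on GRCm38.p6. Dnajb1 is shown because it was the only member to pass the test, Hspa1a and Hspa1b because they are near-identical copies of which a single one had a probe, Hspa5 for its endoplasmic reticulum stress element and Hspe1 for its run of heat-shock units. The motifs searched, on both strands, were 2 inverted heat-shock units (GAANNTTC or TTCNNGAA), 3 alternating units (GAANNTTCNNGAA or TTCNNGAANNTTC), the endoplasmic reticulum stress element (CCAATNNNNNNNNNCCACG) and the CCAAT box (CCAAT). Capitals mark the heat-shock units and the endoplasmic reticulum stress element, and CCAAT boxes elsewhere are left in lower case. The motif of 3 units contains that of 2, and the endoplasmic reticulum stress element contains the CCAAT box. The windows lie at chr8:83607925-83608174 (Dnajb1, plus strand), chr17:34972157-34972406 (Hspa1a, minus strand), chr17:34959239-34959488 (Hspa1b, minus strand), chr2:34771840-34772089 (Hspa5, plus strand) and chr1:55087898-55088147 (Hspe1, plus strand).
Dnajb1: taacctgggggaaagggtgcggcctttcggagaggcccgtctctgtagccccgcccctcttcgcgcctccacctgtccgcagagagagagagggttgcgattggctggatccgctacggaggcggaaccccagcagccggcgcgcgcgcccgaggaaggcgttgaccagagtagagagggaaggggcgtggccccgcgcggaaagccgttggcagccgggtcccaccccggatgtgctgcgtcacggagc
Hspa1a: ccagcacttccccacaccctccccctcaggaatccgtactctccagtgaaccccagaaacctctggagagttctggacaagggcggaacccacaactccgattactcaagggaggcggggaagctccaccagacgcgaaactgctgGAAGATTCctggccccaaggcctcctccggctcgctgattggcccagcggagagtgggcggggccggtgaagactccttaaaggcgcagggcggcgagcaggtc
Hspa1b: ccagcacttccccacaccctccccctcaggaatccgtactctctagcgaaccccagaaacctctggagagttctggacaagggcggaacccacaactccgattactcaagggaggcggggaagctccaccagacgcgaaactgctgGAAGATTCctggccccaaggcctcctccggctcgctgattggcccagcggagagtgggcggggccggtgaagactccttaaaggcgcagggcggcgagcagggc
Hspa5: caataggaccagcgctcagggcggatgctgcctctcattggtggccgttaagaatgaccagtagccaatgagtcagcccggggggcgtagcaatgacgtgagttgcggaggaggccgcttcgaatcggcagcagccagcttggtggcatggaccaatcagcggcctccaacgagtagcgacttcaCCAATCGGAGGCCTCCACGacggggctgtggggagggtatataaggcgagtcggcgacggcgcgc
Hspe1: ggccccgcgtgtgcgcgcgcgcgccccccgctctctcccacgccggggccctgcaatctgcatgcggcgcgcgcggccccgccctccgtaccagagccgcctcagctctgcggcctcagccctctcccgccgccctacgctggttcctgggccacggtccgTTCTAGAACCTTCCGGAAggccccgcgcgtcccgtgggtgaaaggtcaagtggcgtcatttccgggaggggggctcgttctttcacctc

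Hspa1a and Hspa1b carried the same base at 247 of the 250 upstream positions (98.8%), with 2 heat-shock units beginning 104 bases before the start site in each. In Hspe1, 3 alternating units began 89 bases before the start. The endoplasmic reticulum stress element of Hspa5 began 65 bases before its start. Dnajb1 has 2 start-site windows in the table, and neither held a heat-shock motif in these letters. Over windows of 300 bases (the 250 upstream and 50 downstream), 7 of the 10 members had a sequence, in 11 windows, and 2 heat-shock units lay in 6 of these 11 windows (5 members), against 15.1% of the 32851 windows in the table. Runs of 3 units are rarer, at 0.603% of all windows, and were found in 3 of the 11, those of Hspe1 and Hsph1. The endoplasmic reticulum stress element was in 0.119% of all windows and in 1 of the 11, that of Hspa5, and the CCAAT box was in 37.4% of all windows and in 8 of the 11. The windows are not independent. Those of Hsph1 overlap and count the same heat-shock units more than once, as overlapping windows of Dnaja1 do for the CCAAT box. The members were also chosen as heat-shock genes, and no test was made against all windows. These matches describe the letters of the windows and say nothing about binding in these cells.

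Levels below are log2 of the processed signal minus the 75th percentile of the array, which was read from the 18519 probes that exceeded background on every array. A level of 0 is thus that percentile itself, and levels of different probes are not compared. The share of probes well above background was 44.6% to 49.6% on 4 arrays and 33.9% on IL15ko 2, the dimmest array. Wild-type 1 and 2 lay closest together (robust SD of their log2 difference 0.17), and wild-type 3 stood further from them (0.34 and 0.38), about as far as the IL15ko arrays from each other (0.38). The probe for Il15 stayed under the background threshold on all arrays and so does not check the genotype. All 8 T and NKT cell markers with a probe were well above background on all arrays. Their summed linear signal, in multiples of the array's 75th percentile, was 97.6 to 100.3 in wild-type and 92.8 to 101.1 in IL15ko. Single markers moved in both directions within this sum, with 2 called higher in IL15ko, 1 called lower and 5 not passing. Zbtb16 was 2.83-fold higher (limma, adjusted p = 0.0162) and Cd5 1.58-fold higher (adjusted p = 0.0398), while Cd2 was 2.14-fold lower (adjusted p = 0.0221). Of 7 NK cell and innate lymphoid markers, 5 were well above background on all arrays and Ncr1 on none. Their sum was 19.5 to 20.7 in wild-type and 4.03 to 5.40 in IL15ko, and 4 of them (Klrb1c, Klra8, Klre1 and Klra4), which NKT cells also express, fell. The sum of 9 double-positive thymocyte markers was 1.54 to 2.17 in wild-type and 3.58 to 3.90 in IL15ko, with Rag1, Rag2, Ptcra, Cd8a and Cd8b1 above background on no array. The sum of 6 B cell markers, 3 of them (Ms4a1, Cd79a and Pax5) above background on no array, was 0.232 to 0.273 in wild-type and 0.361 to 0.369 in IL15ko. None of the 3 tested passed (limma). Cd79b differed by 0.92 (adjusted p = 0.0881), Blk by 1.11 (adjusted p = 0.172) and Cd22 by -0.03 (adjusted p = 0.961). The sum of 9 myeloid and dendritic markers was 34.6 to 53.6 against 34.7 to 51.2. Most of it came from Siglech (log2 levels 5.47, 5.58 and 4.93 against 4.91 and 5.34). Lyz2, Itgax, Adgre1 and Flt3 were above background on no array. Csf1r read -1.14, -0.33 and -1.34 against -2.63 and -3.82 without passing (limma, adjusted p = 0.0509), and Itgam had the opposite sign with overlapping groups. The myeloid sum and those of 8 thymic epithelial markers (0.0524 to 0.136 against 0.0557 to 0.100) and 5 erythroid markers (0.0332 to 0.0572 against 0.0474 to 0.0493) overlapped between the groups. In bulk RNA, fewer cells of a type and less RNA per cell cannot be told apart.

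Without IL-15 the chaperones did not move together. Of the 9 genes measured, Dnajb1 fell by close to 1 log2 unit, none rose, and 8 did not pass the test (limma, Benjamini-Hochberg over all 11997 genes tested, adjusted p under 0.05). Over all genes 7.33% were called in either direction, 3.58% lower and 3.75% higher, so a single call among 9 genes is near the background and describes Dnajb1 alone. The difference was negative for 6 members and positive for 3, and the median was -0.21 against 0.01 over all genes tested. The 2 groups did not overlap for 7 members, 4 lower and 3 higher in IL15ko, and this holds for 47.2% of all genes (22.1% lower, 25.1% higher). An unadjusted p under 0.05 was reached by 3 members, Dnajb1, Hspa8 and Hsph1, and by 27.5% of all genes. The counts depend on single arrays: 879 genes were called on the 5 arrays, but 9 when wild-type 1 was dropped, 104 when wild-type 2 was, 337 when IL15ko 1 was and 191 when IL15ko 2 was, and the members' median was 0.053 without wild-type 3 and 0.021 without IL15ko 1.

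**Figure D1:**
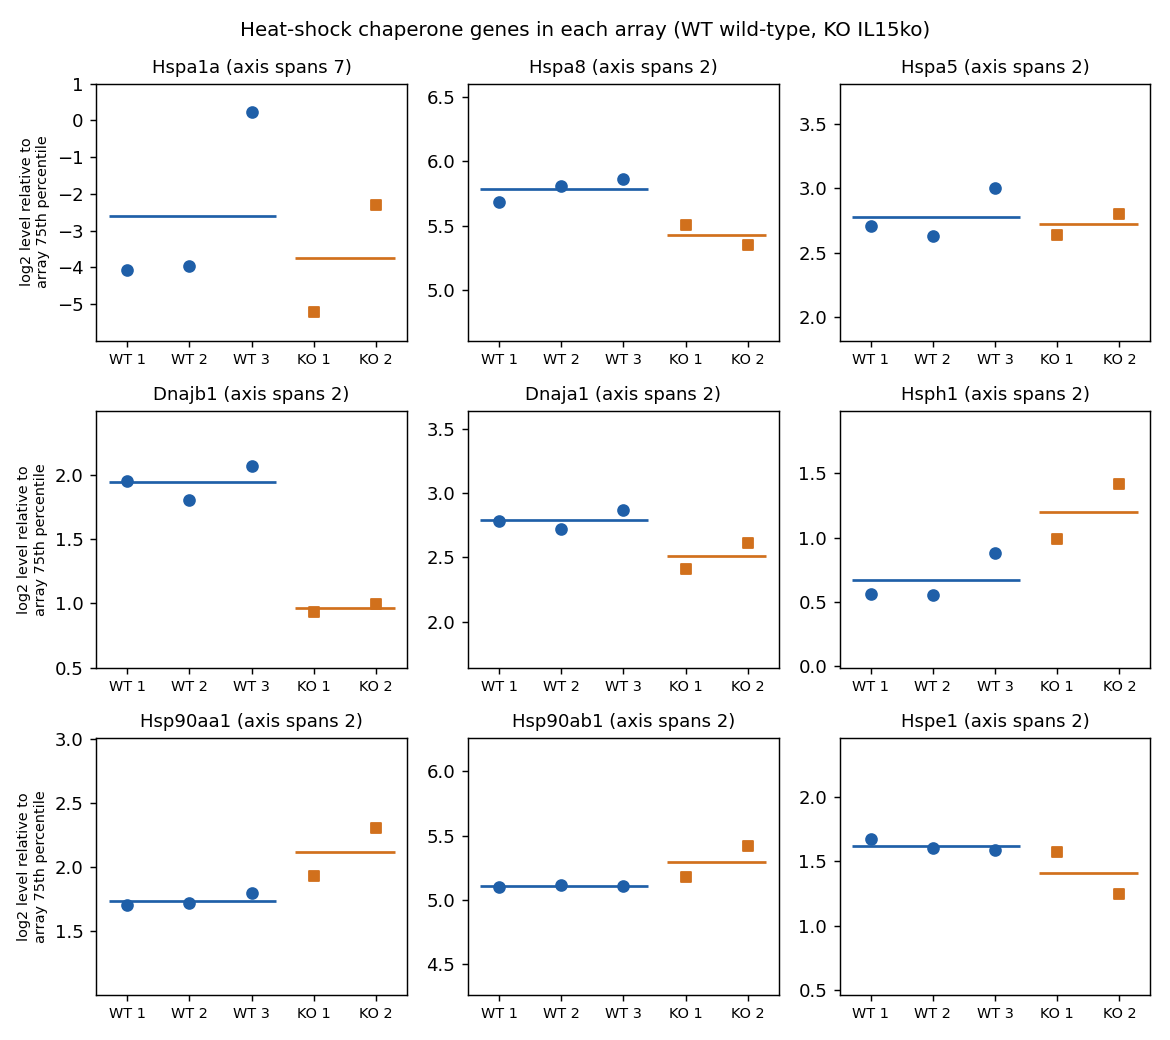
Level of each of the 9 measured chaperone genes on every array, as log2 signal relative to the array's 75th percentile, with wild-type as circles, IL15ko as squares and a line at each group mean. Only Dnajb1 passed the test, with its IL15ko arrays at 0.93 and 0.99 below all wild-type arrays at 1.80 to 2.07, and the Hspa1a axis spans more units than the others because its arrays ran from -5.22 to 0.23.

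Dnajb1, the J-domain partner of cytosolic HSP70, read 1.95, 1.80 and 2.07 on wild-type arrays 1 to 3 and 0.93 and 0.99 on IL15ko arrays 1 and 2 (probe A_51_P153486). Every IL15ko value lay below every wild-type value, and the gap between the groups was several times the spread within either. The mean was 1.94 ± 0.13 (SD, n = 3) in wild-type and 0.96 ± 0.046 (SD, n = 2) in IL15ko. The difference was -0.98 ± 0.14 (SE), 1.97-fold lower in IL15ko with a 95% interval of 1.55 to 2.52, and passed limma's test across all genes (adjusted p = 0.0228). In the fit over 15581 probes, of which 6.21% were called (3.27% lower), Dnajb1 gave an adjusted p of 0.0269 and was the only one of the 15 chaperone probes called. Leaving out wild-type 1, wild-type 2, IL15ko 1 or IL15ko 2 kept the difference between -1.05 and -0.95 but raised limma's adjusted p to 0.12, 0.0801, 0.0704 and 0.094. Without wild-type 3 it was -0.92 with an adjusted p of 0.0436. The call also ended, with the sign kept, under median centring (-0.83, limma's adjusted p = 0.301) and normexp background correction (-0.99, adjusted p = 0.0923). It ended too, again with the sign kept, with no filter on dim probes (adjusted p = 0.144), wild-type 1 and 2 averaged (-1.01, adjusted p = 0.089) and the replicate number as a block (-0.92, adjusted p = 0.0697). Median centring gave Dnajb1 and the other genes followed across settings the same SE (0.41), so the spread of single genes did not enter that test. The same arrays differed in the summed NK cell markers (lower in IL15ko) given above. They also differed in the summed double-positive thymocyte and B cell markers (higher in IL15ko), though no single B cell marker passed. The part of any of these in the Dnajb1 difference was not tested.

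Dnaja1, a J-domain protein that also serves cytosolic HSP70, read 2.78, 2.72 and 2.87 in wild-type and 2.41 and 2.61 in IL15ko on its brightest probe. The IL15ko arrays were both lower, by a small margin. The difference of -0.28 ± 0.14 (SE) did not pass limma's test (adjusted p = 0.246, 95% interval -0.62 to 0.06). A second, dim Dnaja1 probe, well above background on 4 of 5 arrays, read -5.11, -4.58 and -4.77 against -5.60 and -5.65, a difference of -0.80 ± 0.19 (SE; limma over probes, adjusted p = 0.0776). Both probes pointed the same way, and neither passed.

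Hspa8, the constitutive HSP70 that also uncoats clathrin vesicles, read 5.68, 5.81 and 5.86 in wild-type against 5.50 and 5.35 in IL15ko. Each IL15ko array was below each wild-type array. The difference of -0.36 ± 0.13 (SE) had a 95% interval of -0.69 to -0.02 and an unadjusted p of 0.0411, and it did not pass after adjustment over all genes (limma, adjusted p = 0.165). Its other 2 probes were also lower on average. The first read 3.78, 3.81 and 4.12 against 3.78 and 3.40, a difference of -0.32 (limma over probes, adjusted p = 0.350). The last read 2.05, 2.07 and 2.77 against 1.91 and 0.29, a difference of -1.19 ± 0.52 (SE; adjusted p = 0.222). That last value rests mostly on IL15ko 2, the dimmest array, and the part of array brightness in it was not tested.

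Hspa1a, the stress-inducible HSP70, showed the widest spread of any member within the groups. It read -4.07, -3.96 and 0.23 on wild-type arrays 1 to 3 and -5.22 and -2.30 on IL15ko arrays 1 and 2. Wild-type 3 was high, the other 4 arrays were low, and the groups overlapped. The means were -2.60 ± 2.45 (SD, n = 3) and -3.76 ± 2.07 (SD, n = 2), and the difference of -1.16 ± 1.61 (SE) had an interval from -5.23 to 2.90 (limma, adjusted p = 0.665). A change of Hspa1a between genotypes of many-fold in either direction therefore lies within the error of these 5 arrays. Hspa1a and Hspa1b are near-identical copies, so the probe assigned to Hspa1a may also bind Hspa1b transcripts.

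The spread of Hspa1a was set against all genes after its values had been seen. On wild-type 3 it stood 4.24 log2 units (18.9-fold) above the mean of wild-type 1 and 2, the highest such gap of 11992 genes, where the median absolute gap was 0.24 and the 95th percentile 1.03. Counting both directions, 4 genes, itself included, had a gap as large, or 0.0334%. Wild-type 1 and 2 differed by 0.11. IL15ko 2 stood 2.93 log2 units (7.60-fold) above IL15ko 1, a rise of this size or more being seen for 13 of 11995 genes, itself included (median absolute gap 0.26, 95th percentile 1.17). The single spot of this probe had a median signal of 116, 102 and 2605 on the wild-type arrays over a local background of 42 on each, and of 78 and 142 over 36 and 46 on the IL15ko arrays. It was neither marked as an outlier nor saturated on any array, and it was well above background on all 5. The other 8 members did not share the wild-type 3 gap: theirs ran from -0.05 for Hspe1 to 0.34 for Hspa5, and Dnajb1 had 0.19. The cause of the Hspa1a gap was not tested.

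**Figure D2:**
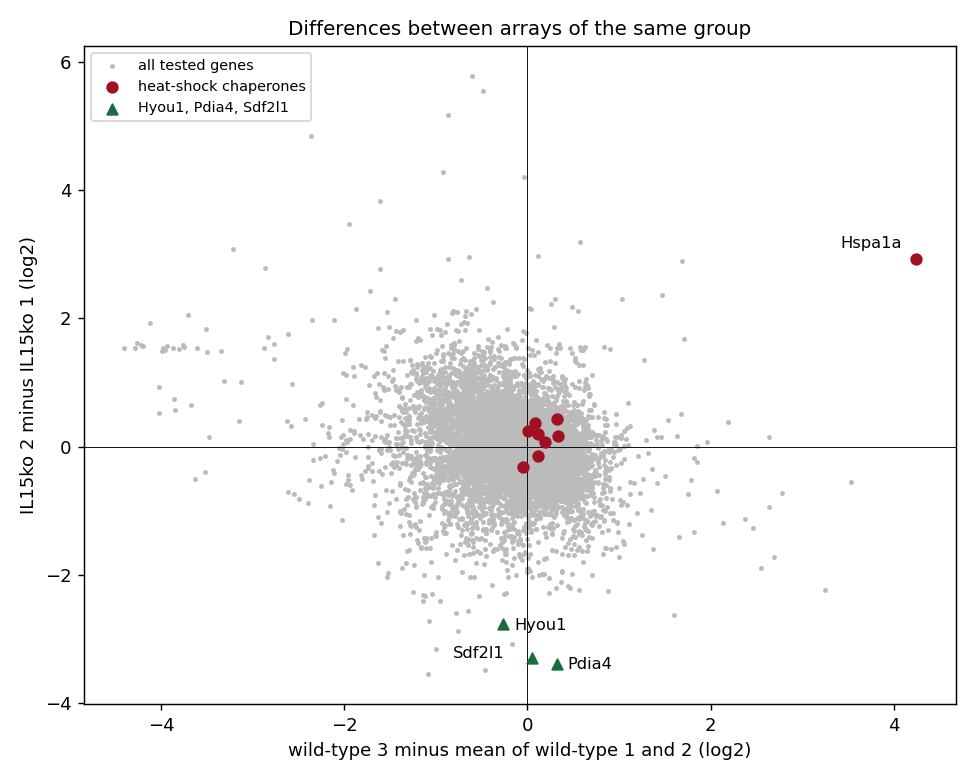
Difference between arrays of the same group for each gene, with wild-type 3 minus the mean of wild-type 1 and 2 on the x axis and IL15ko 2 minus IL15ko 1 on the y axis, both in log2 units, and chaperone members in red over all genes. Hspa1a lies alone at 4.24 and 2.93 while the other 8 members sit near the origin, and Hyou1, Pdia4 and Sdf2l1 (green) lie low on the y axis.

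Hspa5 (BiP), the HSP70 of the endoplasmic reticulum, read 2.71, 2.63 and 3.00 in wild-type and 2.64 and 2.80 in IL15ko. The groups overlapped. The difference was -0.06 ± 0.17 (SE), with an interval of -0.48 to 0.36 (limma, adjusted p = 0.837).

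Hsph1, the nucleotide exchange factor of the HSP110 family, went the other way from Dnajb1 in sign. It read 0.56, 0.56 and 0.88 in wild-type and 0.99 and 1.42 in IL15ko, with both IL15ko arrays above all wild-type arrays. The difference of 0.54 ± 0.20 (SE), 1.45-fold, had an interval of 0.03 to 1.04 and an unadjusted p of 0.0402, and did not pass over all genes (limma, adjusted p = 0.163). Its second probe gave a difference of 0.07 (limma over probes, adjusted p = 0.766), so the probes disagree in size.

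Both cytosolic HSP90 genes read slightly above wild-type in IL15ko without passing. Hsp90aa1, the stress-inducible form, read 1.71, 1.72 and 1.79 against 1.93 and 2.30, a difference of 0.38 ± 0.16 (SE; interval -0.02 to 0.78; limma, adjusted p = 0.199). Hsp90ab1, the constitutive form, read 5.10, 5.11 and 5.11 against 5.18 and 5.42, a difference of 0.19 ± 0.13 (SE; interval -0.15 to 0.53; adjusted p = 0.408). In each case IL15ko 2 was the highest array and IL15ko 1 lay close to wild-type. The wild-type SD of Hsp90ab1 was 0.0051, against a median of 0.17 over all genes.

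Hspe1, the lid of the mitochondrial HSP60 chamber, read 1.67, 1.61 and 1.59 in wild-type and 1.58 and 1.25 in IL15ko. IL15ko 1 was next to the lowest wild-type array and IL15ko 2 was clearly lower. The difference was -0.21 ± 0.15 (SE; interval -0.59 to 0.17; limma, adjusted p = 0.407), and its other probes gave -0.20 (limma over probes, adjusted p = 0.467) and 0.01 (adjusted p = 0.978). Its partner Hspd1 (HSP60), which lies head to head with it, differed by 0.13 ± 0.16 (SE; limma over genes, adjusted p = 0.626). Among the 8 members not called, 6 had an interval inside a change of 1 log2 unit, the widest bound being 0.78, and Hspa1a and Hsph1 did not.

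**Figure D3:**
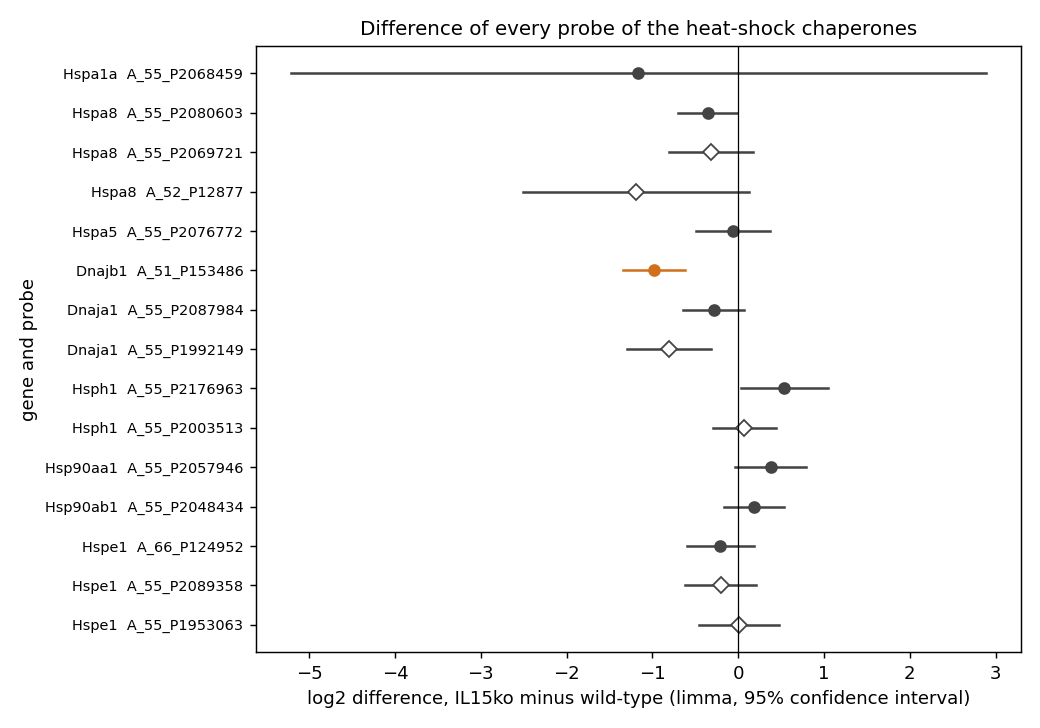
Log2 difference IL15ko minus wild-type for each of the 15 chaperone probes with its 95% interval from the fit over probes, the brightest probe of a gene filled, its other probes open and the called probe in orange. Dnajb1 at -0.98 is the only called probe, 10 of the 15 differences are below 0, and the interval of Hspa1a is wider than all others.

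The rest of the chaperone network held few calls. The 8 other lists (heat-shock factors, other HSP70 and HSP110 genes, other J-domain genes, cochaperones, mitochondrial chaperones and proteases, small heat-shock proteins, the CCT chaperonin with prefoldin, and endoplasmic reticulum folding genes) held 141 genes, of which 140 had a probe and 130 were tested. Among these 130, 1 rose, 2 fell and 127 did not pass, below the 7.33% called over all genes. Their median difference was 0.09 with 79 above 0, beside a difference above 0 for 6167 of all 11997 genes tested. The lists differed in medians from 0.01 (endoplasmic reticulum) to 0.37 (small heat-shock proteins, of which 5 of 10 were not above background on any array).

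Clpb, a mitochondrial disaggregase, was the 1 that rose. It read -1.45, -1.49 and -1.58 in wild-type and -0.56 and -0.49 in IL15ko, 0.98 ± 0.12 (SE) higher, or 1.97-fold (limma, adjusted p = 0.0187), and its other probe gave 0.87 (limma over probes, adjusted p = 0.0263). Dnaja4, a J-domain protein of the same class as Dnaja1, read -1.02, -1.23 and -0.99 against -2.06 and -1.93, -0.92 ± 0.14 (SE), or 1.89-fold lower (adjusted p = 0.0281). A dim second Dnaja4 probe, well above background on 2 arrays, gave -0.45. Herpud1, an endoplasmic reticulum membrane protein that helps degrade misfolded proteins, read 0.04, 0.08 and 0.24 against -0.73 and -0.62, -0.80 ± 0.13 (SE), or 1.74-fold lower (adjusted p = 0.0327). In all 3 the groups were separate. Leaving out 1 array ended the call of Dnaja4 and Herpud1 whichever array it was, and that of Clpb for all arrays but wild-type 3. All 3 calls also ended with median centring, normexp, no dim-probe filter, wild-type 1 and 2 averaged and the replicate block. Those of Dnaja4 and Herpud1 ended with the percentile over all probes too, and that of Dnaja4 with the mean of its probes (-0.68, limma's adjusted p = 0.202).

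None of the 4 heat-shock factor genes tested passed, of 5 listed. Hsf1, the main inducer of the heat-shock genes, read -0.96, -0.95 and -0.64 in wild-type and -0.51 and -0.28 in IL15ko, a difference of 0.45 ± 0.17 (SE; limma, adjusted p = 0.163). Among 28 cochaperones none passed, and Stip1, which bridges HSP70 and HSP90, came with 0.87 ± 0.22 (SE; adjusted p = 0.0777), Fkbp8 with 0.56 (adjusted p = 0.0585), Bag2 with 0.55 (adjusted p = 0.0725) and Bag6 with 0.65 (adjusted p = 0.0745). Of the J-domain genes not called, Dnajc15, a mitochondrial J-domain protein, had the smallest p (-0.74 ± 0.15 SE; adjusted p = 0.0534). Cct6a, a CCT subunit, differed by 0.82 (adjusted p = 0.065). In the endoplasmic reticulum list the uncalled genes of smallest p had both signs. The stress-sensing kinase Eif2ak3 (PERK) differed by -0.61 (limma, adjusted p = 0.0596), the disulfide oxidase Ero1a by 0.96 (adjusted p = 0.0603) and the disulfide isomerase Txndc5 by 1.14 (adjusted p = 0.0718).

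**Figure D4:**
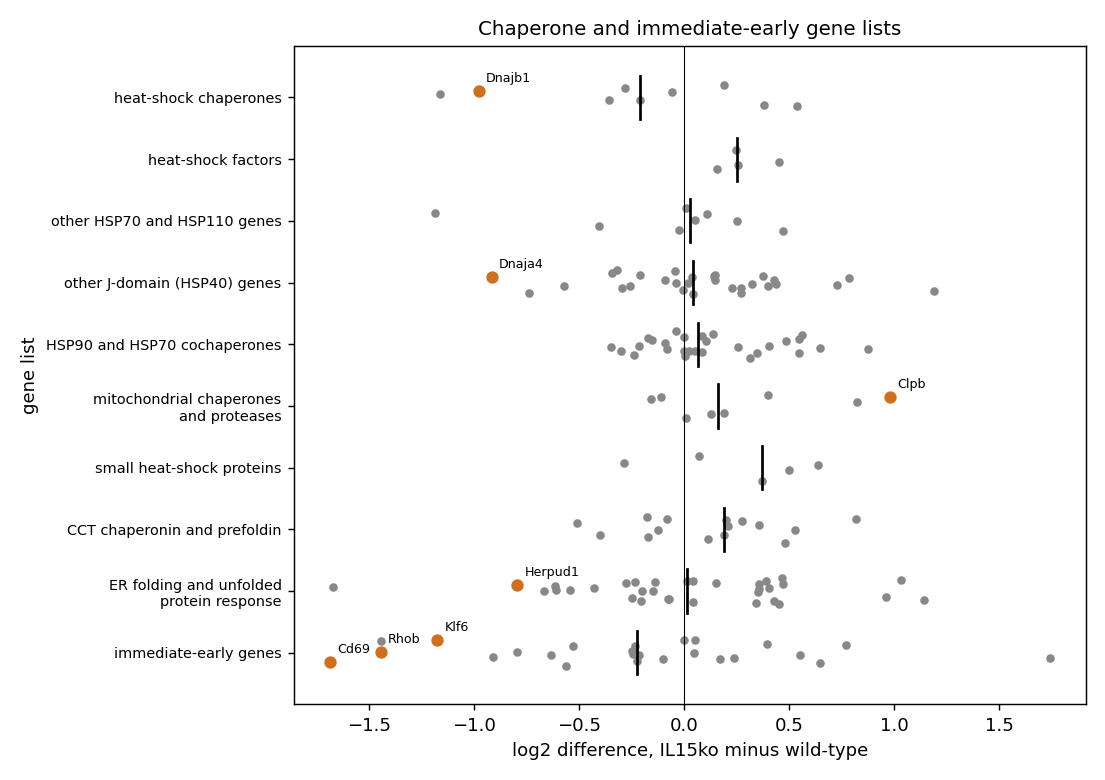
Log2 difference IL15ko minus wild-type of each tested gene, grouped by chaperone list, with a black bar at each list's median and called genes in orange. The called genes are Dnajb1 among the members, Dnaja4, Clpb and Herpud1 in the other chaperone lists, and Rhob, Klf6 and Cd69 among the immediate-early genes.

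Immediate-early genes, which cells induce within minutes of a stimulus, were set beside the chaperones as a further group of inducible genes. Of 25 tested, 3 fell, none rose and 22 did not pass, beside 3.58% lower and 7.33% in either direction over all genes, with a median difference of -0.23. The small GTPase Rhob was lower by 2.72-fold (-1.45 ± 0.17 SE; limma, adjusted p = 0.0172; above background on 4 arrays), the zinc-finger factor Klf6 by 2.26-fold (-1.18 ± 0.21 SE; adjusted p = 0.0375) and the early activation antigen Cd69 by 3.22-fold (-1.69 ± 0.30 SE; adjusted p = 0.0375). With normexp the Rhob difference shrank to -0.39 (limma's adjusted p = 0.532). A second Rhob probe, above background on 1 array, was not tested, and its groups overlapped. The calls of Rhob, Klf6 and Cd69 all ended when wild-type 1 or wild-type 2 was dropped, with normexp, without the dim-probe filter and with wild-type 1 and 2 averaged. Without IL15ko 2 that of Rhob ended, without IL15ko 1 that of Klf6, and without wild-type 3 or under the replicate block those of Klf6 and Cd69. Klf6 was not called with median centring, nor Cd69 in the authors' deposited table of values (limma's adjusted p = 0.0551). Ier5, the uncalled gene of smallest p, differed by -1.44 ± 0.32 (SE; adjusted p = 0.0611). Nr4a1, a nuclear receptor induced by T cell receptor signals, had the opposite sign without passing (1.74 ± 0.43 SE; adjusted p = 0.0745). Fos overlapped between the groups (-3.18, -3.34 and -2.75 against -3.99 and -2.66), as did Jun (1.12, 1.26 and 1.47 against 0.20 and 1.30) and Egr1 (-0.48, -0.53 and -0.04 against -0.32 and 0.09), all 3 named after their values were seen. On wild-type 3, where Hspa1a was high, 15 of the 25 immediate-early genes were at their highest among the wild-type arrays, 9 at their lowest and 1 between. Dusp1, a phosphatase of MAP kinases, was among the lowest, at 0.19, 0.01 and -1.34 on wild-type arrays 1 to 3, and it was also named after its values were seen. Being highest on wild-type 3 was not particular to the immediate-early genes. It held for 7 of 9 members, 16 of 28 cochaperones, 24 of 33 endoplasmic reticulum genes and 12 of 29 other J-domain genes. The share over all genes was not counted.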

How the data were processed

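The 5 arrays were scanned and quantified with Agilent Feature Extraction 10.7.1.1, per the file headers, and the deposited scanner files give each spot's intensity. A version of limma is not given beside its name in the submitters' processing notes. The deposited value table holds linear intensity per spot, not scaled between arrays, and was used as an alternative. For bright spots it equals the median signal less its local background, shifted by an amount set per array whose origin is not given in the sources used here. From the scanner files, log2 of the deposited processed intensity was taken minus each array's 75th percentile over the 18519 probes that exceeded background on every array, which balances brightness but assumes that bright probes do not shift together. Controls and outlier-marked spots were dropped, and no spot was saturated. Of 55681 probes, 26425 were named through RefSeq accessions (GRCm38.p6), none had several symbols and 29256 were unnamed.

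A gene was represented by its brightest probe and tested where this probe passed the scanner's background test (well above background) on 2 arrays or more. Differences between IL15ko and wild-type were fitted with limma 3.58.1 (lmFit and eBayes, R 4.3.3) and adjusted with Benjamini-Hochberg over all 11997 genes, or over all 15581 probes in a second fit. The scripts were tested on simulated data. The number of arrays (3 and 2) limits the precision, with 3 residual degrees of freedom. All arrays lay on 1 slide and were scanned once, per the file headers, so neither forms a batch. Alternatives changed the percentile, the centring, the background correction, the dim-probe filter, the probe rule, the variance prior, array weights and blocking, and left out each array. The normexp alternative used the spot median in place of the spot mean, because the files used here do not hold the mean column, which departs from the planned design. The genes named are all members, every called gene of the other lists, the uncalled genes of smallest p (up to 4 per list) and genes needed for a count. The members and lists were chosen with earlier results of these data known. Promoter windows come from RefSeq, and for Hspa8, Hsp90aa1 and Hsp90ab1 none is printed. The result of 1 marker gene is not reported here, and it is left out of its list's sum.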

Additional observations from a re-analysis of the deposited data

How the results depend on the processing

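Of the 9 measured members, none but Dnajb1 was called under any of the 17 alternatives, and the number of members called higher was 0 in each. Dnajb1 kept its sign in all 17 (differences of -1.05 to -0.83) and was called in 8. The number of members called lower went from 1 to 0 with median centring, normexp, no filter on dim probes, the replicate block and wild-type 1 and 2 averaged, and was 0 to 1 when single arrays were left out. The number of chaperone probes called went from 1 to 0 under those 5 settings and under the percentile over all probes, and was 0 to 0 without single arrays. Over all genes, 879 calls became 1 with normexp, 5 without the filter, 1512 with a trended robust prior and 101 with wild-type 1 and 2 averaged, and were 9 (without wild-type 1) to 775 (without wild-type 3) when arrays were left out. Calls in the other chaperone lists went from 3 to 1 with the percentile over all probes, 0 with normexp, 0 without the filter, 14 with probes above background on all arrays, 13 with the trended prior, 8 with array weights and 0 with wild-type 1 and 2 averaged, and were 0 to 4 without single arrays. Calls over all genes also rose with probes above background on all arrays (1189 of 9760 tested), the trended prior (1512 of 11997) and array weights (1046 of 11997). The members' median of -0.21 became 0.016 with array weights and lay between -0.22 and 0.053 without single arrays. Median centring moved the median of all genes from 0.01 to 0.16 and normexp to 0.22. Median centring also gave the genes followed across settings a shared SE (0.41). The sign of Hspa5 turned with median centring (0.086) and array weights (0.016), and that of Hspa1a with array weights (0.075). Without single arrays Hspa5 ran from -0.14 to 0.053 and Hspa1a from -2.63 to 0.30. Hyou1 turned to 0.20 with normexp, and without single arrays Hyou1 ran from -2.57 to 0.20, Pdia4 from -3.36 to 0.020 and Sdf2l1 from -2.26 to 1.03. Beyond the fewer arrays or other sets of genes that a setting itself brings, the cause was not tested.

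The groups share the replicate numbers 1 and 2, but the numbers were not taken to pair samples. Deviations from the group means correlated at -0.13 for number 1 and 0.21 for number 2 over 11990 genes. Wild-type 3 and IL15ko 1, which share no number, correlated at 0.23. With 2 IL15ko arrays their deviations are mirror images of each other, so these values cannot settle whether the numbers pair. With the replicate block, in which wild-type 3 has no partner, 379 genes were called, 0 members lower, 0 chaperone probes and 0 genes of the other chaperone lists. Under the block the members' median was 0.053, Dnajb1 differed by -0.92 (limma, adjusted p = 0.0697), Hspa5 by 0.053 and Hspa1a by 0.25.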

Other observations

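Among endoplasmic reticulum folding genes, 3 were low on IL15ko 2 alone, and they were singled out after their values were seen. Pdia4, a disulfide isomerase, read -1.11, -0.96 and -0.71 in wild-type, -0.91 on IL15ko 1 and -4.29 on IL15ko 2. Sdf2l1, a partner of Hspa5, read -1.48, -1.42 and -1.40 in wild-type, -0.40 on IL15ko 1 and -3.70 on IL15ko 2. Hyou1, the HSP110 protein of the endoplasmic reticulum, read -4.09, -3.94 and -4.28 in wild-type, -3.91 on IL15ko 1 and -6.68 on IL15ko 2. It was above background on 4 arrays. On IL15ko 2, genes above background on no array read at similar levels, such as Rag1 at -6.97 and Rag2 at -6.39. The size of the Hyou1 gap is therefore uncertain. For Pdia4, Sdf2l1 and Hyou1 in turn, the gap of IL15ko 2 minus IL15ko 1 was -3.38, -3.29 and -2.77. Of 11995 genes, 3, 4 and 8 fell as far or further. Hspa5, which works with all of them, read 2.64 and 2.80 on these arrays. None of the 3 passed between genotypes (limma, adjusted p of 0.322 for Pdia4, 0.694 for Sdf2l1 and 0.381 for Hyou1). IL15ko 2 was also the dimmest array, and the part of that in these values was not tested.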
